A study of Drosophila melanogaster with 6 samples.

Results

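Box C/D snoRNAs are small nucleolar RNAs that pair with ribosomal RNA through a short antisense stretch next to a conserved box and place a 2′-O-methyl group on the paired nucleotide. The methyl group is added by Fibrillarin, which sits on the snoRNA together with the core proteins Nop56, nop5 and hoip. A subset of fly box C/D snoRNAs carries the U names of vertebrate snoRNAs, and these were followed here across a Fibrillarin knockdown design. They are the genes whose name begins with snoRNA:U14, U27, U29, U31, U49 or U76, and they number 13 of the 23932 genes in each deposited table. The rule uses names only, but it was chosen with earlier results of these data known. U14 is known in yeast both for an early step of ribosomal RNA precursor processing and for methylation of 18S rRNA. In humans, U27 is known as a guide for 18S rRNA, and U29, U31, U49 and U76 as guides for 28S rRNA.

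The libraries came from S2R+ cells, an established embryonic line of Drosophila melanogaster, and were made by TGIRT-seq, in which a group II intron reverse transcriptase copies structured small RNAs and long RNAs of ribodepleted total RNA together. The compared groups were 3 libraries labelled dsFib, for a knockdown of Fibrillarin with double-stranded RNA, and 3 labelled dsLacZ, for double-stranded RNA against lacZ, a bacterial gene that fly cells lack. No other allele, agent or time is given in the labels. They give no word on separate cultures either, so the p-values below reflect only the variation among these 3 libraries a group, possibly a technical one.

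The libraries held 11695250 to 15172052 counts. Fib, the targeted gene and the methyltransferase of these particles, went against the label, with 1312, 955 and 994 CPM (counts scaled to a common library size by TMM) in the libraries labelled dsFib, against 214, 257 and 227 CPM in dsLacZ. By edgeR's quasi-likelihood test it rose by 2.22 on the log2 scale (SE 0.15, adjusted p = 0.00103 by Benjamini-Hochberg, 3 libraries a group). Reads of the Fib messenger RNA and reads of the introduced double-stranded RNA cannot be told apart in a count per gene. All directions below therefore follow the labels only. Nuclear tRNA took 18.3% of the counts in dsLacZ replicate 2 and 10.8% to 15.3% in the other 5 libraries. Of 10 markers of plasmatocytes, the blood cells that S2R+ cells resemble, 6 were above 1 CPM in every library, Col4a1, Pxn and srp among them. He was at 0 throughout, NimC1 and Sr-CI were below 1 CPM, and eater ran between 0.168 and 1.15 CPM. The summed level of the 10 was 217 to 247 CPM in the libraries labelled dsFib and 180 to 195 CPM in dsLacZ. The muscle, fat body and gut lists, each taken alone, summed to less than 1 CPM in every library. Neuron markers summed to 26.1 to 26.3 CPM in the libraries labelled dsFib and 26.3 to 30.6 CPM in dsLacZ, nearly all of it elav, and germline markers to 92.6 to 101 CPM in dsFib and 106 to 112 CPM in dsLacZ, nearly all of it aub. The part of these differences in the results below was not tested.

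All 13 snoRNAs are intronic and lie in 3 host genes (dm6 coordinates, from the Ensembl annotation of BDGP6). Both U14 copies sit in Uhg2, a noncoding host on 2L (9893805 to 9895003, minus strand): snoRNA:U14:30Ea at 9894205 to 9894285 and snoRNA:U14:30Eb at 9893946 to 9894026. Both U49 copies sit in RpL14, a ribosomal protein gene on 3L (8601006 to 8602392, plus strand): snoRNA:U49:66Da at 8601473 to 8601552 and snoRNA:U49:66Db at 8601948 to 8602031. The other 9, which are the U27, U29, U31 and U76 copies, sit in Uhg1, a noncoding host on 2R (17699097 to 17703344, plus strand). In mammals, too, U27, U29 and U31 lie in introns of a host that encodes no known protein.

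Each of the 13 has an intron of its own and overlaps no annotated exon of its host. Uhg1 carries 16 snoRNAs in 16 introns and Uhg2 carries 4 in 4 introns. The annotated lengths were 67 to 88 nucleotides, with a median of 80, against a median of 79 for the 120 other box C/D snoRNAs with Me or Or-CD names. The end of the snoRNA lay 69 to 95 nucleotides before the end of its intron, with a median of 72. Of the 13, 11 ended between 65 and 80 nucleotides before it, as did 61 of the 84 other intronic box C/D snoRNAs and 16 of 105 intronic box H/ACA snoRNAs, the class that guides pseudouridylation. The exceptions were snoRNA:U49:66Da at 95 and snoRNA:U76:54Eb at 87 nucleotides.

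These snoRNAs were a minor part of the libraries. Together they took 0.0230%, 0.0214% and 0.0173% of the counts in the libraries labelled dsFib replicates 1, 2 and 3, against 0.0234%, 0.0264% and 0.0292% in dsLacZ, so the groups did not overlap. The other box C/D snoRNAs took 0.501% ± 0.0351 in the libraries labelled dsFib and 1.03% ± 0.123 in dsLacZ (mean ± SD, n = 3), and U3, the box C/D snoRNA of precursor cleavage, took 2.06% ± 0.208 in the libraries labelled dsFib and 1.98% ± 0.159 in dsLacZ. The log2 ratio of the U-named to the other box C/D counts within a library does not depend on scaling. It was -4.47, -4.43 and -4.94 in the libraries labelled dsFib and -5.25, -5.40 and -5.21 in dsLacZ, higher in each library labelled dsFib than in any dsLacZ library. Set against U3 instead, the log2 ratio was -6.45, -6.47 and -7.05 in the libraries labelled dsFib and -6.26, -6.30 and -6.14 in dsLacZ, lower in each library labelled dsFib than in any dsLacZ library. No test is given for these sums, and the share of other sums without overlap was not computed. They include snoRNA:U27:54Eb, the 1 copy called below. It had 264, 223 and 306 counts in the libraries labelled dsFib, against 477, 627 and 609 in dsLacZ. The lack of overlap may thus rest on that copy and does not describe the whole set. Fewer snoRNA molecules per cell and more of the other RNAs cannot be told apart in such shares.

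Levels of single copies spanned a wide range. The deposited TPM, a value per length, gives all RNAs of up to 140 nucleotides the same length factor within a library, so within a library it orders these 13 as CPM does. snoRNA:U14:30Ea was the highest with a mean of 148 TPM over the 6 libraries, and exceeded the next, snoRNA:U49:66Da at 103 TPM, in 5 of 6 libraries. Then came snoRNA:U27:54Ea at 98.9, snoRNA:U27:54Eb at 86.2 and snoRNA:U76:54Eb at 76.4 TPM. The place of snoRNA:U27:54Eb differed between the groups: its mean was 52.9 TPM in the libraries labelled dsFib, below snoRNA:U76:54Eb at 62.6, and 120 TPM in dsLacZ, above snoRNA:U27:54Ea at 104. The ranges of neighbours in this order overlapped, except at its foot, and from snoRNA:U49:66Da to snoRNA:U76:54Eb each copy was above the next in 3 of 6 libraries. snoRNA:U14:30Eb at 50.0 and snoRNA:U49:66Db at 43.4 TPM were each above the other in 3 of 6 libraries.

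The U31 copies were lower, at 12.2 TPM for snoRNA:U31:54Ec, 9.32 TPM for snoRNA:U31:54Eb and 4.42 TPM for snoRNA:U31:54Ed. In all 6 libraries snoRNA:U49:66Db was above snoRNA:U31:54Ec, and snoRNA:U31:54Eb above snoRNA:U31:54Ed. The U29 copies were the lowest. snoRNA:U29:54Eb had 4, 4 and 10 counts in the libraries labelled dsFib, against 28, 6 and 8 in dsLacZ. snoRNA:U29:54Ec had 2 counts in each library labelled dsFib, against 6, 14 and 10 in dsLacZ. snoRNA:U29:54Ed had 0 counts in all 6 libraries, which allows up to 0.0380 CPM over the pooled counts, counting error only.

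Low counts were mostly even: of the whole counts below 20, 89.3% to 91.1% of those over all genes in a library, and 12 of 12 of those of these snoRNAs, where whole means within 1e-06 of a whole number. The value of snoRNA:U29:54Eb in dsFib replicate 3, printed above as 10, misses this tolerance and is not among the 12. The labels do not say why low counts are even, and if each fragment was counted as 2 the limit for snoRNA:U29:54Ed would be 0.0761 CPM. Fractional counts were present in all 6 libraries for both U14 copies and for snoRNA:U49:66Db, in 5 for snoRNA:U49:66Da, in 4 for snoRNA:U27:54Eb, in 3 for snoRNA:U76:54Eb and snoRNA:U31:54Ec, and in 1 for snoRNA:U27:54Ea, snoRNA:U31:54Ed and snoRNA:U29:54Eb. How the counter divided reads between similar copies is not known here, so values of single copies are uncertain.

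**Figure D1:**
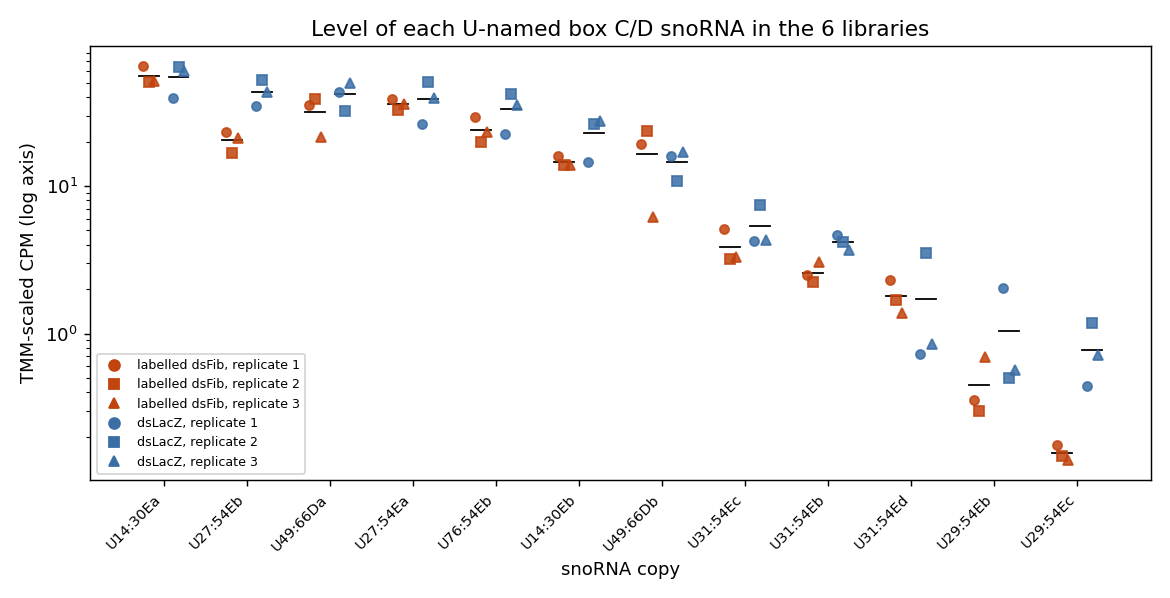
Level of each of 12 U-named box C/D snoRNAs (x axis) in TMM-scaled CPM on a log axis, 1 point per library, with bars at group means. The 3 libraries labelled dsFib (left, orange) lie below the 3 dsLacZ libraries (right, blue) for snoRNA:U27:54Eb, snoRNA:U31:54Eb and snoRNA:U29:54Ec, and the groups overlap for the other 9. snoRNA:U29:54Ed, at 0 in all libraries, is not drawn.

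The main question of the design is how these snoRNAs differed in the libraries labelled dsFib. Of the 13, 10 passed the filter on low counts, each with all 6 libraries over the filter's minimum, and the 3 U29 copies did not. In edgeR, 1 of the 10 fell and 0 rose. Over all 8302 genes tested, 0.373% fell and 0.53% rose. At an unadjusted p of 0.05, 3 of the 10 were lower and 0 higher, against 8.26% lower and 7.67% higher of all genes. DESeq2 and limma-voom called the same snoRNA and no other of the 10, while DESeq2 called 1.58% of all genes lower and 2.28% higher, and limma-voom 0.325% lower and 0.482% higher. The log2 fold change was below 0 for 7 of the 10 and above 0 for 3, against 51.7% and 48.3% of all genes, and the median was -0.43, against -0.01 over all genes. The 74 tested box C/D snoRNAs with Me or Or-CD names had a median of -0.83, the 108 tested box H/ACA snoRNAs -0.001 and the 3 U3 genes 0.06. For 2 of the 10 the groups did not overlap, with the lower values in dsFib, as was so for 12.1% of all genes. Of the 74 other box C/D snoRNAs, 14 fell and 0 rose in edgeR, so a fall was not particular to the U-named set. At an unadjusted edgeR p of 0.05, 46 of the 74 were lower and 0 higher, and 42 did not overlap, with dsFib lower. Of the 108 box H/ACA snoRNAs and the 3 U3 genes, 0 fell and 0 rose in edgeR.

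The snoRNA that fell was snoRNA:U27:54Eb, in intron 14 of Uhg1 (2R, 17702637 to 17702708). Its level was 23.4, 16.6 and 21.2 CPM in the libraries labelled dsFib, against 34.9, 52.7 and 43.2 CPM in dsLacZ. All libraries labelled dsFib lay below all dsLacZ libraries, and the copy was 2.14-fold lower (log2 fold change -1.10, SE 0.18, edgeR adjusted p = 0.0369). DESeq2 gave an adjusted p of 4.98e-05 and limma-voom 0.0491. The edgeR call was lost when dsFib replicate 1, 2 or 3 or dsLacZ replicate 3 was left out, with log2 fold changes between -1.20 and -0.96 and adjusted p-values between 0.144 and 0.178. In those fits edgeR called 1 to 4 genes higher and 1 to 3 lower over all genes, so calls were lost in general.

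The second U27 copy, snoRNA:U27:54Ea in intron 8 of Uhg1 (2R, 17701229 to 17701297), did not pass. It had 38.8, 32.9 and 35.7 CPM in the libraries labelled dsFib, against 26.3, 50.5 and 39.4 CPM in dsLacZ. The libraries labelled dsFib lay inside the wider spread of dsLacZ, with a log2 fold change of -0.11 (95% interval -0.59 to 0.37, edgeR adjusted p = 0.844), and 0.12 without dsLacZ replicate 2. Summed over both copies, U27 had 56.2 ± 6.29 CPM in the libraries labelled dsFib and 82.3 ± 21.0 CPM in dsLacZ (mean ± SD, n = 3), a log2 fold change of -0.55 (SE 0.18). Such sums gave -0.14 (SE 0.19) for U14, -0.44 (SE 0.25) for U31 and -0.23 (SE 0.28) for U49. The U29 sum had 0.603 ± 0.202 CPM in the libraries labelled dsFib and 1.81 ± 0.614 CPM in dsLacZ. Its log2 fold change was -1.56 (SE 0.51), from copies too low to test singly. No p is given for family sums.

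Neither U14 copy passed. snoRNA:U14:30Eb, in intron 4 of Uhg2, had 15.9, 13.9 and 13.8 CPM in the libraries labelled dsFib, against 14.4, 26.4 and 27.5 CPM in dsLacZ. Replicate 1 of dsLacZ lay among the libraries labelled dsFib, and the log2 fold change of -0.65 did not pass (SE 0.24, edgeR adjusted p = 0.234). Without that library it was -0.88, with an adjusted p of 0.0322. snoRNA:U14:30Ea, in intron 3, had 65.4, 51.1 and 51.4 CPM in the libraries labelled dsFib, against 39.5, 64.0 and 60.3 CPM in dsLacZ. The groups overlapped, and the log2 fold change of 0.04 (95% interval -0.39 to 0.46, adjusted p = 0.951) was -0.14 without dsLacZ replicate 1.

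The ratio of copies within a library describes this difference without any scaling, and for U27 it reuses the counts of the copy called above. For U27, the log2 ratio of snoRNA:U27:54Eb to snoRNA:U27:54Ea was -0.73, -0.98 and -0.75 in the libraries labelled dsFib, against 0.41, 0.06 and 0.14 in dsLacZ, a difference of -1.02. snoRNA:U27:54Eb was thus the less counted copy in the 3 libraries labelled dsFib and the more counted one in the 3 dsLacZ libraries. For U14, the log2 ratio of snoRNA:U14:30Eb to snoRNA:U14:30Ea was -2.05, -1.88 and -1.90 in the libraries labelled dsFib, against -1.45, -1.28 and -1.13 in dsLacZ, a difference of -0.65. Of the 6 pairs of tested U-named copies, these 2 alone had groups that did not overlap. Each gave p = 0.1 in a two-sided exact permutation test, the smallest that 3 against 3 libraries allow. The share of other gene pairs without overlap was not computed. Adjusted over the 12 pairs compared it was p = 0.24 in this exact test. With 3 against 3 libraries no pair could have passed a threshold of 0.05, so the test cannot decide here.

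**Figure D2:**
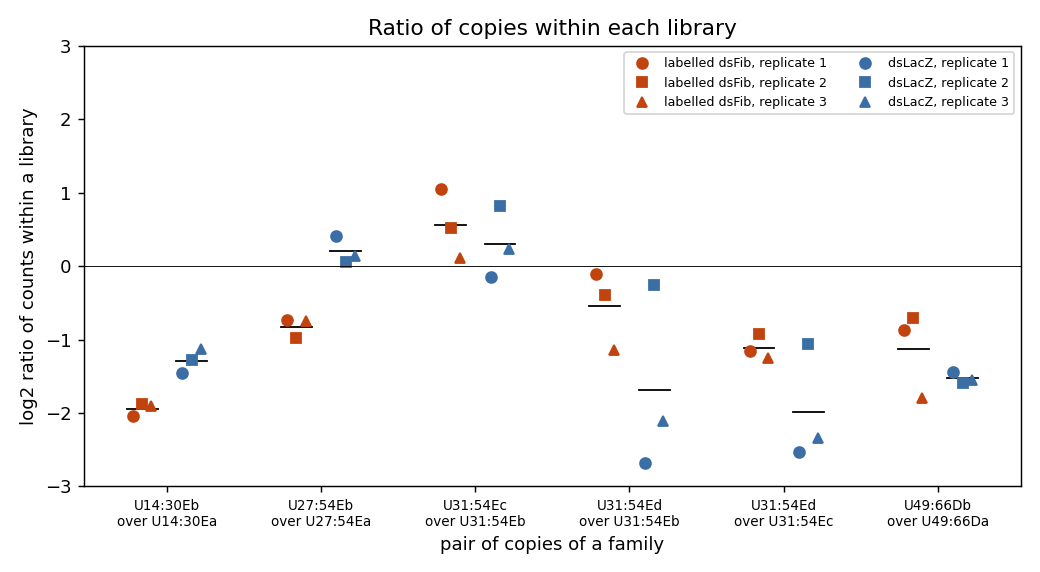
Log2 ratio of the counts of 2 copies of a family within each library (y axis) for the 6 pairs of tested U-named copies (x axis), 1 point per library and bars at group means. The 3 libraries labelled dsFib (left, orange) lie below the 3 dsLacZ libraries (right, blue) for the U14 and U27 pairs, and the groups overlap for the 3 U31 pairs and the U49 pair.

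The U31 copies, in introns 11, 12 and 13 of Uhg1, did not pass. snoRNA:U31:54Eb had 2.48, 2.24 and 3.04 CPM in the libraries labelled dsFib, against 4.68, 4.20 and 3.69 CPM in dsLacZ. The groups did not overlap, and its log2 fold change was -0.69 (SE 0.29, edgeR adjusted p = 0.298). snoRNA:U31:54Ec had 5.13, 3.22 and 3.28 CPM in the libraries labelled dsFib, against 4.24, 7.39 and 4.33 CPM in dsLacZ, with a log2 fold change of -0.46 (SE 0.33), which was -0.71 without dsFib replicate 1 and -0.16 without dsLacZ replicate 2. snoRNA:U31:54Ed, with 10 to 42 counts per library, had 2.30, 1.70 and 1.38 CPM in the libraries labelled dsFib, against 0.731, 3.53 and 0.853 CPM in dsLacZ. Its highest value by far among the dsLacZ libraries was in replicate 2, and the SE of 0.64 exceeded its log2 fold change of 0.09, which was 1.17 without that library.

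U76 is represented by 1 copy. snoRNA:U76:54Eb, in intron 6 of Uhg1, had 29.4, 19.9 and 23.1 CPM in the libraries labelled dsFib, against 22.6, 41.8 and 35.4 CPM in dsLacZ. Replicate 1 of dsLacZ lay among the libraries labelled dsFib, and the log2 fold change of -0.46 did not pass (SE 0.23, edgeR adjusted p = 0.373) and was -0.27 without dsLacZ replicate 2.

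Neither U49 copy, in introns 2 and 3 of RpL14, passed. snoRNA:U49:66Da had 35.3, 38.7 and 21.4 CPM in the libraries labelled dsFib, against 43.4, 32.4 and 49.7 CPM in dsLacZ. snoRNA:U49:66Db had 19.3, 23.7 and 6.14 CPM in the libraries labelled dsFib, against 15.9, 10.8 and 17.0 CPM in dsLacZ. Both were lowest of their group in dsFib replicate 3 and in dsLacZ replicate 2, the library in which all 8 tested copies of Uhg1 and Uhg2 were above their own mean over the 6 libraries. Their log2 fold changes were -0.40 (SE 0.23, edgeR adjusted p = 0.439) for snoRNA:U49:66Da and 0.16 (SE 0.42, adjusted p = 0.899) for snoRNA:U49:66Db. Without dsFib replicate 3 they were -0.18 for snoRNA:U49:66Da and 0.55 for snoRNA:U49:66Db, and without dsLacZ replicate 3 that of snoRNA:U49:66Da was -0.245. For snoRNA:U49:66Db limma-voom gave -0.08, and the ratio of the copies overlapped between the groups (exact permutation p = 0.4).

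**Figure D3:**
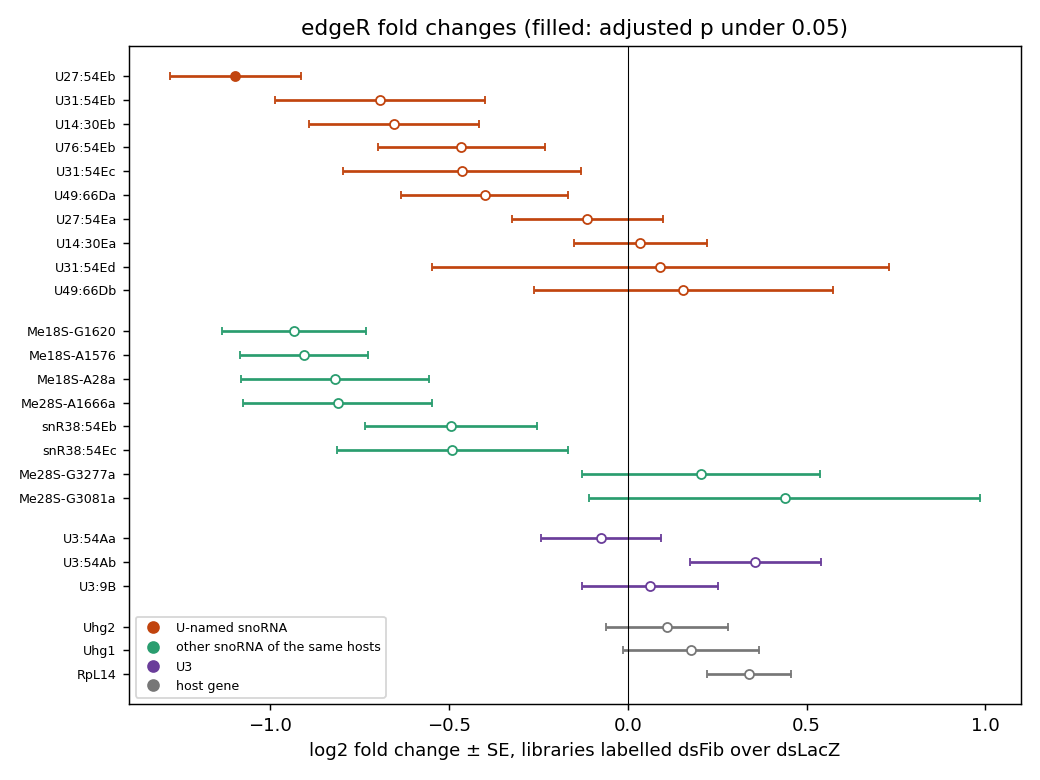
Log2 fold change with its SE (x axis), libraries labelled dsFib over dsLacZ, of the 10 tested U-named snoRNAs, the 8 other tested snoRNAs of their hosts, the 3 U3 genes and the 3 hosts (y axis). The single filled point, past the adjusted threshold of 0.05, is snoRNA:U27:54Eb at -1.10, and the hosts lie between 0.11 and 0.34.

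None of the 3 hosts passed in edgeR, DESeq2 or limma-voom, and 1, RpL14, was higher at an unadjusted edgeR p of 0.05. Uhg1 had 21.3, 18.6 and 16.9 CPM in the libraries labelled dsFib, against 16.7, 12.9 and 20.5 CPM in dsLacZ, and its log2 fold change was 0.18 (SE 0.19, edgeR adjusted p = 0.706). It was 0.0859 without dsFib replicate 1, 0.0236 without dsLacZ replicate 2 and 0.365 without dsLacZ replicate 3. Uhg2 had 19.0, 14.5 and 14.7 CPM in the libraries labelled dsFib, against 12.9, 16.3 and 15.4 CPM in dsLacZ, with 0.11 (SE 0.17, adjusted p = 0.802) and -0.03 without dsFib replicate 1. RpL14 had 1583, 1372 and 1616 CPM in the libraries labelled dsFib, all above 1127, 1252 and 1234 CPM in dsLacZ. Its log2 fold change of 0.34 did not pass (SE 0.12, adjusted p = 0.214), and 11% of all genes had groups that did not overlap with higher values in the libraries labelled dsFib. Set against its host within each library, the summed U27, U29, U31 and U76 copies had a log2 ratio to Uhg1 of 2.26, 2.05 and 2.39 in the libraries labelled dsFib, against 2.53, 3.64 and 2.64 in dsLacZ. The groups did not overlap there. The groups overlapped for U14 over Uhg2 and for U49 over RpL14.

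The hosts carry 9 further snoRNAs, of which 8 were tested. None passed the edgeR or limma-voom test, 6 of the 8 lay below 0, and 4 were lower and 0 higher at an unadjusted edgeR p of 0.05. DESeq2 called 2, snoRNA:Me18S-A1576 and snoRNA:Me18S-G1620, both lower. The 3 largest changes in size were those of snoRNA:Me18S-G1620 and snoRNA:Me18S-A1576, guides for 18S rRNA in introns 2 and 1 of Uhg2, and of snoRNA:Me18S-A28a in intron 16 of Uhg1. snoRNA:Me18S-A1576 had 742, 674 and 985 CPM in the libraries labelled dsFib, against 1250, 1751 and 1493 CPM in dsLacZ. These groups did not overlap (log2 fold change -0.90, SE 0.18, edgeR adjusted p = 0.0586). snoRNA:Me18S-G1620 had 10.8, 8.80 and 10.3 CPM in the libraries labelled dsFib, all below 14.3, 23.1 and 19.7 CPM in dsLacZ (log2 fold change -0.93, adjusted p = 0.0753). Within Uhg2, 3 of the 4 snoRNAs thus had log2 fold changes between -0.93 and -0.65, and snoRNA:U14:30Ea had 0.04.

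**Figure D4:**
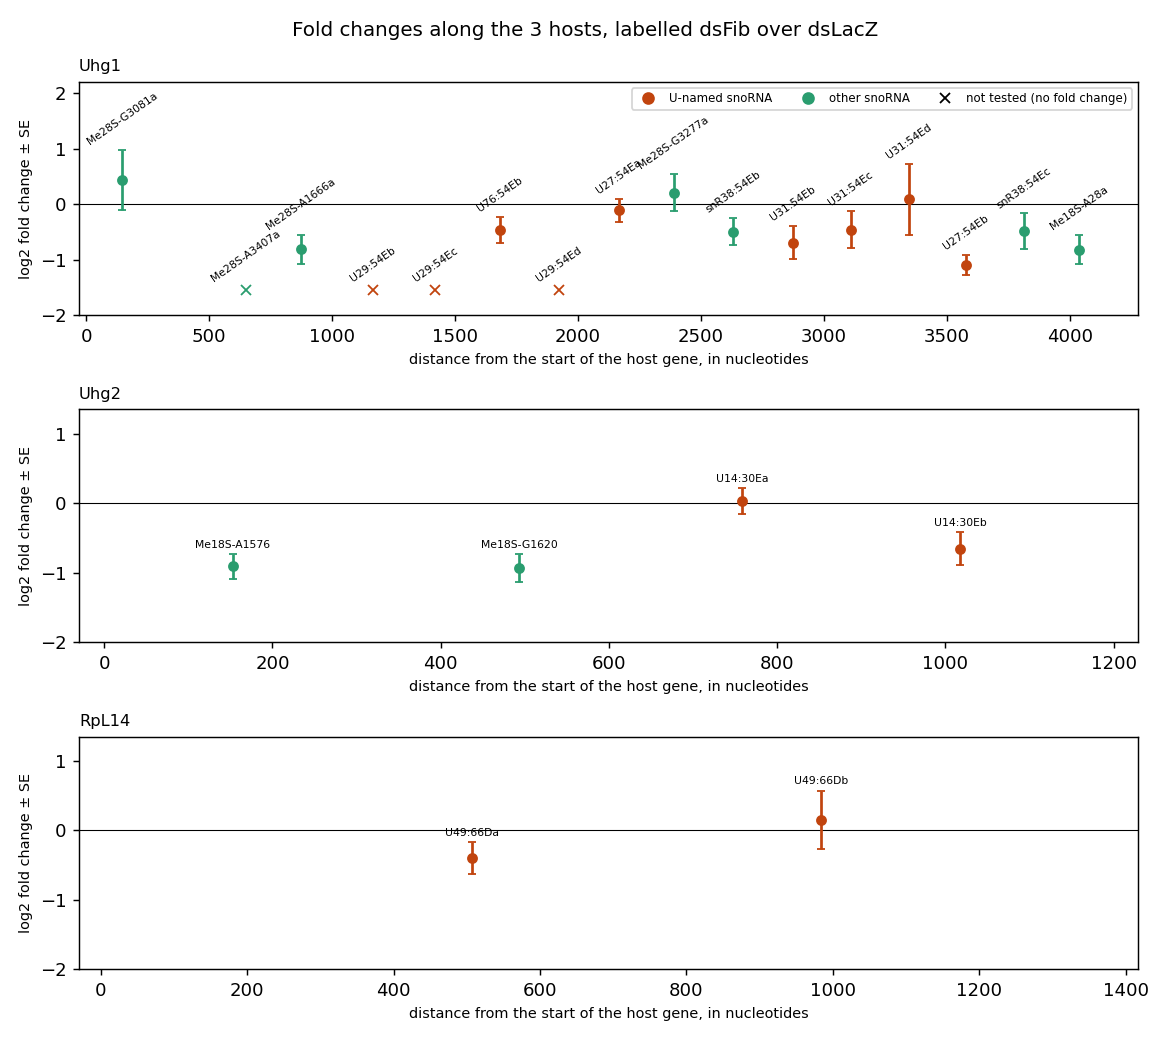
Log2 fold change with its SE (y axis), libraries labelled dsFib over dsLacZ, of each tested snoRNA against its distance in nucleotides from the start of Uhg1, Uhg2 or RpL14 (x axis). In Uhg1 the U-named snoRNAs run between -1.10 for snoRNA:U27:54Eb and 0.09 for snoRNA:U31:54Ed, and crosses mark the 4 snoRNAs with too few counts for a test.

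The families extend to 4 genes of Uhg1 that the RefSeq gene table (Release 6 assembly) also lists under an older U27, U29, U31 or U76 name, a set added after the files were seen. snoRNA:Me18S-A28a, formerly snoRNA:U27:54Ec, had 9.66, 8.26 and 6.20 CPM in the libraries labelled dsFib, all below 10.1, 18.6 and 13.8 CPM in dsLacZ. Its log2 fold change was -0.82 (SE 0.26, edgeR adjusted p = 0.193), and in its ratio to snoRNA:U27:54Ea the groups did not overlap (difference -0.73, exact permutation p = 0.1). Over snoRNA:U27:54Eb its ratio differed by 0.29 with overlapping groups.

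snoRNA:Me28S-A1666a, formerly snoRNA:U76:54Ea, had 46.5, 32.6 and 43.7 CPM in the libraries labelled dsFib, against 43.6, 96.3 and 75.7 CPM in dsLacZ, and did not pass (log2 fold change -0.81, SE 0.26, edgeR adjusted p = 0.197). snoRNA:Me28S-G3081a, formerly snoRNA:U31:54Ea, averaged 1.11 ± 0.600 CPM in the libraries labelled dsFib and 0.809 ± 0.0873 CPM in dsLacZ (mean ± SD, n = 3). snoRNA:Me28S-A3407a, formerly snoRNA:U29:54Ea, had 0.708, 0.149 and 0.277 CPM in the libraries labelled dsFib, against 0.146, 0 and 0 CPM in dsLacZ. It did not pass the filter, as was so for the other U29 copies. Among the 6 pairs with such a copy, the groups did not overlap for 3, snoRNA:Me18S-A28a over snoRNA:U27:54Ea among them. Another was snoRNA:U31:54Eb over snoRNA:Me28S-G3081a, with a difference of -1.02 in the log2 ratio. That ratio was 0.49, 1.91 and 1.65 in the libraries labelled dsFib, against 2.42, 2.32 and 2.38 in dsLacZ. Counts of snoRNA:Me28S-G3081a were low, with 3 of 6 libraries over the filter's minimum. The last was snoRNA:U76:54Eb over snoRNA:Me28S-A1666a, with a difference of 0.32 (exact permutation p = 0.1 for each, adjusted p = 0.24). snoRNA:U76:54Eb was thus higher relative to its copy in the libraries labelled dsFib.

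The U3 genes, which carry the same core proteins, did not pass. snoRNA:U3:9B had 11132, 9607 and 12678 CPM in the libraries labelled dsFib, against 8584, 12787 and 10662 CPM in dsLacZ, with a log2 fold change of 0.06 (SE 0.19). snoRNA:U3:54Ab had 0.36 (SE 0.18, edgeR adjusted p = 0.389) and snoRNA:U3:54Aa -0.07 (SE 0.17), and the groups overlapped for all 3.

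Genes of the box C/D particle were compared in the same fit. Of 11 genes listed for its core, its assembly and its nucleolar chaperones, Fib alone passed, and its count was higher, with the limit on its reads given above. DESeq2 and limma-voom called 0 of the other 10, and 0 had an unadjusted edgeR p under 0.05. The core protein genes had log2 fold changes of 0.05 for hoip (SE 0.11), whose protein binds the box C/D fold first, -0.01 for nop5 (SE 0.10) and -0.01 for Nop56 (SE 0.09). The AAA+ ATPases of assembly, pont and rept, had -0.13 and -0.12, their chaperone Hsp83 -0.16, and the assembly factors Nufip, spag and Pih1D1 -0.25, -0.25 and -0.11. For pont and Hsp83 the groups did not overlap, with the lower values in dsFib, as was so for 12.1% of all genes. Without dsFib replicate 2 pont had -0.0784, and without dsLacZ replicate 2 rept had -0.0369. Nopp140, a nucleolar protein that binds snoRNA particles, had 194, 208 and 148 CPM in the libraries labelled dsFib, against 191, 58.6 and 163 CPM in dsLacZ. Its low value was in dsLacZ replicate 2, and its log2 fold change of 0.41 (SE 0.36) was 0.0506 without that library and 0.74 without dsLacZ replicate 1.

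Across the 6 libraries, the 10 tested snoRNAs averaged above their own mean in dsFib replicate 1 by 0.05 on a log2 scale, and lay at -0.18 and -0.36 in dsFib replicates 2 and 3, against -0.11, 0.38 and 0.20 in dsLacZ replicates 1, 2 and 3. The extremes were thus dsFib replicate 3 and dsLacZ replicate 2, and dsLacZ replicate 1 lay among the libraries labelled dsFib. The 5 genes with the most similar profile, of 6603 with a mean of at least 5 CPM, were Ppox (an enzyme of heme synthesis), ArgRS-m (a mitochondrial arginyl-tRNA synthetase), CG44242, MsrA (a methionine sulfoxide reductase) and smg (a translational repressor), which differed from it by a mean of 0.04 to 0.06 per library. None of the 5 passed the edgeR test, and smg alone had an unadjusted p under 0.05.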

How the data were processed

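Each library has a table of its own giving every gene's estimated count, CPM and TPM as deposited, per the file headers. According to the submitters' processing notes, Bowtie2, STAR, cutadapt 3.4 and the build dm6 were used, with neither roles nor order given. CoCo is named with the tables as the counter, with settings not given in the sources used here. Deposited CPM, as made by the authors, equals the estimated count over the library's total, and the deposited TPM, used to order levels, is scaled by the authors per length. Of the genes of a library, 7.10% to 9.27% had a fractional count, as deposited.

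The rounded counts entered edgeR 4.0.16 (R 4.3.3): filterByExpr with its minimum count of 10, TMM scaling, a quasi-likelihood fit with the group as its term over all 6 libraries, and Benjamini-Hochberg adjustment over the 8302 genes tested, with a threshold of 0.05. SEs were taken as the log2 fold change over the root of the F statistic. Single ratios were compared with exact permutation tests (scipy 1.17.1). Alternatives were other scalings, no filter, DESeq2 1.42.0, limma-voom 3.58.1, a replicate block, leaving out each library, and, added after the files were seen, halved counts and the 4 genes with older U names. Named were all the U-named snoRNAs, their hosts, the U3 genes, the particle list, the 3 largest changes among other snoRNAs of the hosts and the 5 most similar profiles. The snoRNAs, lists and tests were chosen with earlier results of these data known. RNA sequences were not used here.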

Additional observations from a re-analysis of the deposited data

How the results depend on the processing

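Among the U-named snoRNAs, the count of 1 lower and 0 higher was the same with DESeq2 size factors, total counts, TMM outside small RNAs, no filter, DESeq2, limma-voom, halved counts and the 4 older U names. Leaving out each library in turn gave 0 to 2 lower. The count was 0 without dsFib replicate 1, 2 or 3 or dsLacZ replicate 3, and 2 without dsLacZ replicate 1. The median log2 fold change ran from -0.55 to -0.21 when libraries were left out. Deviations of same-numbered libraries correlated at -0.04, -0.21 and -0.11, and no library labelled dsFib matched its own number best. The labels do not say whether same-numbered libraries were prepared together, and these correlations cannot decide it. With the replicate number as a block, 0 of the U-named snoRNAs and 0 of the hosts and particle genes passed, against 1 each without it, and 1 gene passed in all. The log2 fold change with the block was -1.09 for snoRNA:U27:54Eb (edgeR adjusted p = 0.189) and 2.21 for Fib (adjusted p = 0.0602). Over all genes, total counts gave 5 higher and 26 lower against 44 and 31, no filter 167 and 116, DESeq2 189 and 131, and left-out libraries 1 to 221 higher and 1 to 89 lower. Uncalled signs turned for nop5 (0.00168 with DESeq2 size factors, 0.00376 with no filter, 0.00189 with DESeq2, 0.00357 with halved counts), Nop56 (4.35e-05 with no filter, 0.00149 with halved counts) and snoRNA:U49:66Db (-0.084 with limma-voom). Leaving out libraries also turned uncalled signs: hoip ran from -0.0293 to 0.12, nop5 from -0.0615 to 0.0537, Nop56 from -0.0246 to 0.0182, Nufip from -0.67 to 0.15, Pih1D1 from -0.22 to 0.0734, spag from -0.54 to 0.13 and Uhg2 from -0.0257 to 0.19. Among the snoRNAs, snoRNA:U14:30Ea ran from -0.14 to 0.16, snoRNA:U27:54Ea from -0.31 to 0.12, snoRNA:U31:54Ed from -0.26 to 1.17 and snoRNA:U49:66Db from -0.20 to 0.55. The cause was not tested. The SE was widest, at 0.64, for snoRNA:U31:54Ed, which had 10 to 42 counts per library.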
